A study of Mus musculus with 4 samples.

Results

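The 10 genes described here are macrophage identity, scavenging and complement C1q genes (Csf1r, Adgre1, Cd14, Lyz2, Cd68, Mrc1, Apoe, C1qa, C1qb and C1qc) read in RNA from sorted colonic CD4+ T cells. They were taken from the deposited table by gene symbol, and all 10 were present among its 16555 genes. The cells were sorted as CD45+CD3+CD4+ from the colons of Rag1-/- mice with colitis, 6 weeks after the animals had received naive-like CD4+CD25-CD45RBhi T cells. All donor cells carried CK2α fl/fl alleles, floxed for the catalytic subunit of protein kinase CK2. In 1 of the 2 groups they also carried dLck-Cre, which expresses Cre from the distal Lck promoter and so acts in mature T cells. Rag1-/- hosts lack T and B cells of their own but keep macrophages. Each group had 2 libraries, and whether these came from separate or pooled animals is not given in the sources used here, so the p-values reflect the spread between libraries alone, which may be technical.

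The recovered reads per library ranged from 16777017 to 22422971. Csnk2a1, the targeted gene, had 1534 and 1597 normalized counts in fl/fl and, with no decrease, 2118 and 2031 in the libraries labelled dLck-Cre (log2 difference 0.41, limma adjusted p = 0.108). A count per gene does not show whether an exon was removed, so every direction given here follows the labels. T cell genes were abundant in every library. Cd4 had 18035 and 18818 normalized counts in fl/fl compared with 12615 and 13443 under the dLck-Cre label. Its log2 difference of -0.50 did not pass in limma (adjusted p = 0.0691) or edgeR (0.0795) but passed in DESeq2 (0.0230). In bulk RNA of this kind, fewer cells of a type and less RNA per cell cannot be told apart.

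Colonic macrophages are renewed from blood monocytes, and their survival depends on the receptor that Csf1r encodes. They clear microbes and dying cells through surface receptors and lysosomes, and they are a main source of C1q. C1q is built from the chains encoded by C1qa, C1qb and C1qc, binds antibody complexes and dying cells, and activates the proteases C1r and C1s to start the classical complement pathway.

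The C1q genes lie side by side on the minus strand of chromosome 4, within 18675 bases (136880129 to 136898803, GRCm38, GENCODE vM21), in the order C1qb, C1qc and C1qa. Stretches upstream of 4 members are shown: the neighbours C1qb and C1qc, and the scavenging genes Cd68 and Mrc1 from other chromosomes. They come from RefSeq (GRCm38.p6), cover the 250 bases before the RefSeq start and leave out bases that GENCODE places inside the gene, which shortens C1qc to 99 and Mrc1 to 228 bases. Capitals mark matches on either strand to GAGGAA (the core bound by the myeloid factor PU.1), TGCTGA (a MAF site core) or TTGCNNAA (a C/EBP-type site).
C1qb (chr4:136886201-136886450, minus strand): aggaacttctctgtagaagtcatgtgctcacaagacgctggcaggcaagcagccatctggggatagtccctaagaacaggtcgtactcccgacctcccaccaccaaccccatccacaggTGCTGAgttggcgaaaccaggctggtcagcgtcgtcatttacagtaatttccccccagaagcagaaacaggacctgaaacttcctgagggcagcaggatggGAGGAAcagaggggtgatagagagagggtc
C1qc (chr4:136893066-136893164, minus strand): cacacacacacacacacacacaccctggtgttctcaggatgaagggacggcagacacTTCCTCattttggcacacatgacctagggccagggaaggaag
Cd68 (chr11:69666171-69666420, minus strand): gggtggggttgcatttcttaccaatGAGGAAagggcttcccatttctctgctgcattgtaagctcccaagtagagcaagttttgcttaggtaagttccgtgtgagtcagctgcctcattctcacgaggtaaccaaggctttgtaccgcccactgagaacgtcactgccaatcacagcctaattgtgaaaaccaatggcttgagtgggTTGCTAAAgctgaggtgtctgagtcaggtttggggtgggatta
Mrc1 (chr2:14229164-14229391, plus strand): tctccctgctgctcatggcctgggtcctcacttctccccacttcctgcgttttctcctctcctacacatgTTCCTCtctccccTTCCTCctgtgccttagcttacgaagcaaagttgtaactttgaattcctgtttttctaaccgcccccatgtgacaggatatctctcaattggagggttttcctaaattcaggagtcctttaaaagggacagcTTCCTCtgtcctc

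Of the members, 6 had an entry in the RefSeq table, with 8 windows between them (Lyz2, C1qb, C1qc, Cd68, Mrc1 and 3 windows of Apoe). GAGGAA was found in 6 of the 8 windows of 250 bases, against 23.3% of the 32851 windows of all genes. Of those 6, 2 were windows of Apoe. The Apoe windows at chr7:19698399-19698648 and chr7:19698622-19698871 overlap and lie inside the annotated gene, so the 8 windows are not independent. Mrc1 held 3 matches, at 180, 167 and 35 bases before its start. The longer form GAGGAAGT was found in C1qc, where it overlaps the match shown in capitals, and in 2.44% of all windows. TGCTGA was found in 2 of the 8 windows against 16.1% of all, and TTGCNNAA in 1 against 9.56%. TATAAA was found in 1, a window of Apoe, against 12.4%. These are matches of letters only, and none was tested as a binding site.

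All 10 members had a higher mean in the libraries labelled dLck-Cre, by between 1.84-fold and 2.37-fold, and 7 of them passed the test across all genes. The 7 were C1qb, C1qc, Adgre1, Cd14, Cd68, Mrc1 and Apoe, and the 3 that did not pass were C1qa, Csf1r and Lyz2 (limma on log2 of the normalized count plus 1, Benjamini-Hochberg adjusted p under 0.05). Of the 16490 genes tested, 6.97% passed in either direction and 5.75% passed as higher. The members' median log2 difference was 1.11, beside -0.02 over all genes tested. For 9 of the 10 members, both libraries labelled dLck-Cre lay above both fl/fl libraries, as was the case for 27.7% of the genes tested. The members were chosen with results of these data known, so these counts are a description of the list.

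**Figure D1:**
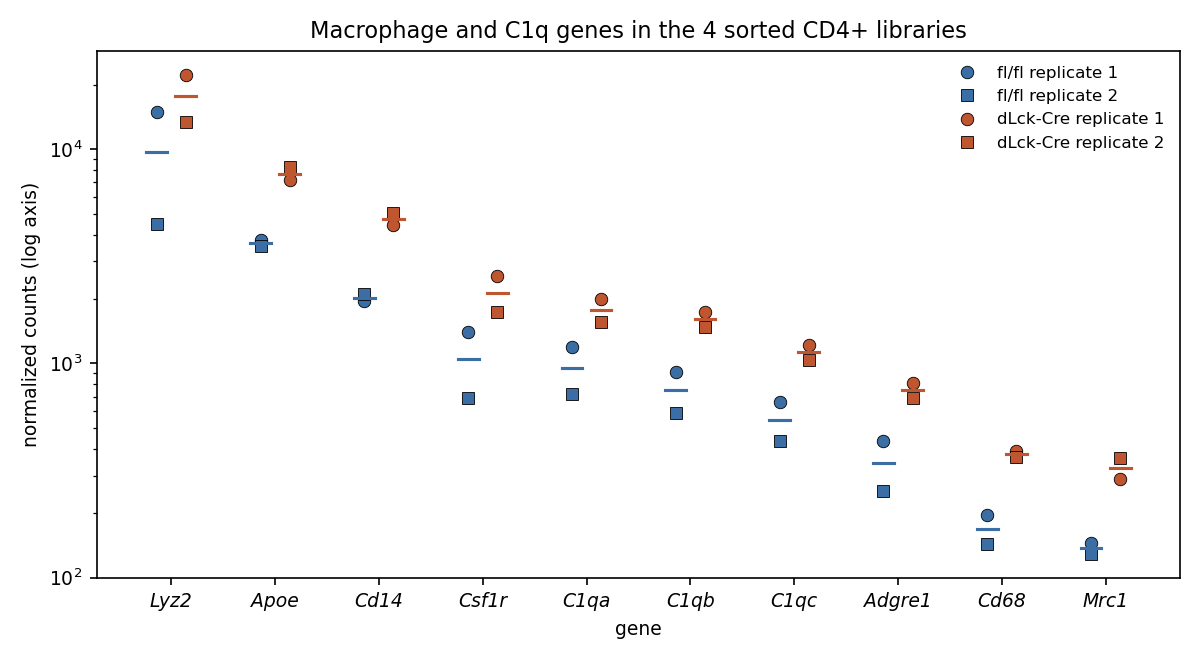
Normalized counts (log axis) of the 10 genes in each library; circles are replicate 1, squares replicate 2, and short bars group means of 2 libraries. Only for Lyz2 do the groups overlap: its lower library labelled dLck-Cre (13354) lies below fl/fl replicate 1 (14917).

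C1qb, which encodes the B chain of C1q, had 909 and 588 normalized counts in fl/fl replicates 1 and 2 and 1741 and 1475 in replicates 1 and 2 of the libraries labelled dLck-Cre. Its groups did not overlap, and it rose by 1.13 ± 0.22 on the log2 scale (SE; limma, adjusted p = 0.0319). C1qc, which encodes the C chain, had 659 and 435 against 1226 and 1043. It also rose without overlap, by 1.08 ± 0.22 (adjusted p = 0.0337). C1qa, the A chain gene, had 1193 and 722 against 2007 and 1566, and its groups did not overlap either. Its difference of 0.93 ± 0.25 did not pass (adjusted p = 0.0683), with a 95% interval of 0.36 to 1.51 that holds the differences of both other chains.

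In each library C1qa was the largest and C1qc the smallest part of the reads of the 3 C1q genes. C1qa made up 43.2% of C1q reads in fl/fl replicate 1 (exact 95% interval 41.3 to 45.1) and 41.4% in fl/fl replicate 2 (39.0 to 43.9). Under the dLck-Cre label it made up 40.3% (38.9 to 41.8) and 38.3% (37.0 to 39.7). Both shares were lower than in fl/fl, although the nearest libraries of the groups lay closer together than the replicates of either. C1qb went the other way, at 32.9% and 33.7% against 35.0% and 36.1%, and here the gap between the nearest libraries of the groups exceeded that between replicates. C1qc made up between 23.9% and 25.5% in every library. These intervals cover counting error only, since PCR copies of a molecule were not marked and may be counted more than once. The C1q transcripts are 62.0% to 63.6% identical over their aligned bases, far less than the lysozyme pair described below.

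The nearest annotated coding genes on either side of the C1q cluster that were in the table were Ephb2, an ephrin receptor gene, and Zbtb40, a zinc finger gene. They were chosen by position. Ephb2 had 297 and 449 normalized counts in fl/fl versus 737 and 827, and it also rose, by 1.09 ± 0.22 (adjusted p = 0.0334). Within the fl/fl group, however, Ephb2 was higher in replicate 2, where the C1q genes were lower. Zbtb40 had 333 and 321 against 414 and 419, a difference of 0.35 ± 0.16 that did not pass (adjusted p = 0.247).

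Csf1r encodes the receptor for CSF1 and interleukin 34 that macrophages need for survival. It had 1402 and 692 normalized counts in fl/fl compared with 2557 and 1730.5 under the dLck-Cre label. The groups did not overlap, but the fl/fl libraries differed from each other by 2.03-fold, and the difference of 1.09 ± 0.33 did not pass (adjusted p = 0.0935). Csf1r shares 873 bases of exon with Hmgxb3 on the opposite strand, and with no statement that strand was used in counting, reads there cannot be told apart. Hmgxb3 itself had 723 and 939 against 832 and 850.5 (difference 0.03, adjusted p = 0.94), with overlapping groups.

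Adgre1, which encodes the mouse macrophage surface marker F4/80, had 434 and 253 normalized counts in fl/fl compared with 811 and 689 under the dLck-Cre label. In normalized counts the groups were apart by more than the range within either. On the log2 scale the gap was smaller than the 0.78 between the fl/fl replicates. Adgre1 rose by 1.17 ± 0.26 (adjusted p = 0.0414). Like the C1q genes, it was higher in replicate 1 than in replicate 2 of each group.

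Cd14, the co-receptor that hands lipopolysaccharide to TLR4, had 1957 and 2101 normalized counts in fl/fl compared with 4427 and 5014 under the dLck-Cre label. The replicates lay close together in each group, and Cd14 rose by 1.22 ± 0.13 (adjusted p = 0.0195). Apoe, which encodes the lipid carrier apolipoprotein E, had 3789 and 3545 against 7148 and 8236. It rose by 1.07 ± 0.14 (adjusted p = 0.0195), with a similarly narrow spread.

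Cd68, a lysosomal membrane glycoprotein gene of phagocytes, had 195 and 144 normalized counts in fl/fl compared with 392 and 366 under the dLck-Cre label. It rose by 1.17 ± 0.22 (adjusted p = 0.0283), and the groups were far apart. Mrc1, the mannose receptor gene, had 146 and 129 against 287 and 363 and rose by 1.23 ± 0.21 (adjusted p = 0.0264). These were the lowest counts among the members, and each rested on more than 100 reads in every library.

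Lyz2, which encodes the lysozyme of macrophages and other myeloid cells, was the most abundant member and the least even. It had 14917 and 4488 normalized counts in fl/fl compared with 22279 and 13354 under the dLck-Cre label. The groups overlapped, and the difference of 1.08 ± 0.50 did not pass (adjusted p = 0.245, 95% interval -0.10 to 2.25). The neighbouring gene Lyz1 is 96.0% identical to Lyz2 over the aligned transcript bases, so reads of the pair may be split. Lyz1 was listed at 118 and 38.7 normalized counts against 130 and 64.7, high and low in the same libraries as Lyz2.

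**Figure D2:**
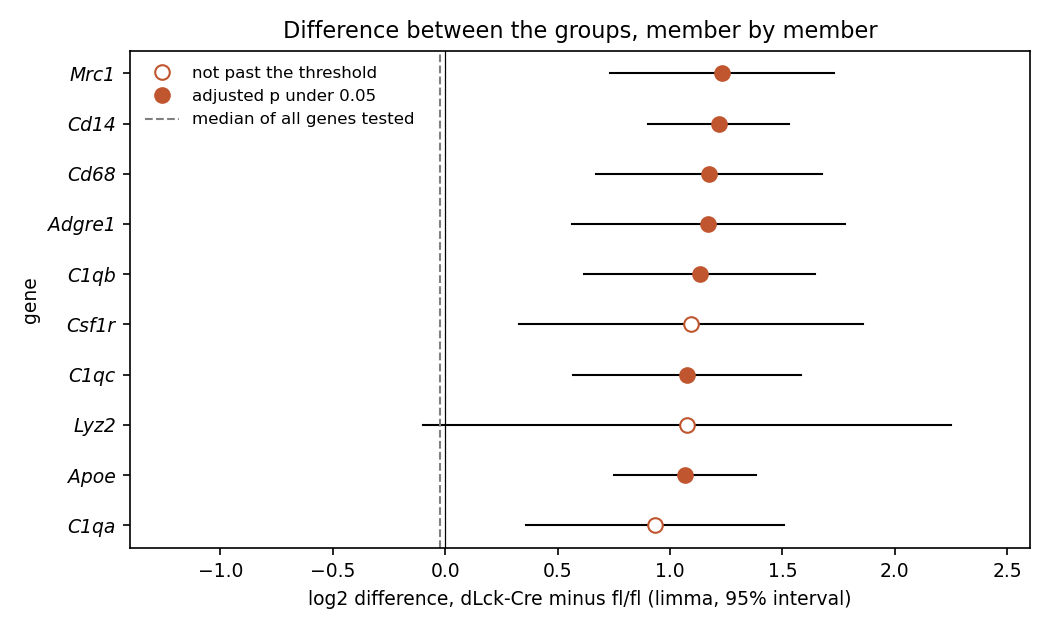
Log2 difference of each gene, libraries labelled dLck-Cre minus fl/fl libraries, with its 95% interval from limma; filled points passed the threshold of 0.05 on adjusted p, open points did not, and the dashed line is the median of all genes tested (-0.02). The differences lie between 0.93 and 1.23, and the interval of Lyz2 alone reaches below 0.

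The calls depended on single libraries. Without fl/fl replicate 1, in which most members were high, all 10 members passed limma's test, including Csf1r (1.60, adjusted p = 0.00389), C1qa (1.29, 0.00748) and Lyz2 (1.94, 0.00248), while 5.4% of all genes passed as higher. Without fl/fl replicate 2, 4 members passed (Cd14, C1qb, Apoe and Mrc1, background 5.56%), and the differences of Lyz2, Csf1r and C1qa were 0.21, 0.58 and 0.57. Without dLck-Cre replicate 1, 3 members passed (Cd14, Apoe and Mrc1, background 5.74%). Without dLck-Cre replicate 2, limma called 0 members and 0 genes of the whole table, although 10 members and 2810 genes had an unadjusted p under 0.05. EdgeR without that library called 1 member, Cd14. With the libraries scaled to the T cell identity genes, 9 members passed (background 32.6%). With all libraries in, edgeR called the same number of members as limma, 7 (5.83% of all genes higher, 6.87% in either direction), and DESeq2 called 9, all but Lyz2 (9.67% of 13932 genes with an adjusted p).

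Summed over the 10 members, reads made up 0.133% and 0.0671% of the fl/fl libraries and 0.244% and 0.184% of the libraries labelled dLck-Cre. The mean share was 0.1001% ± 0.0466 against 0.214% ± 0.0425 (SD, n = 2 each), a ratio of 2.14. An exact two-sided permutation test over the libraries gave p = 0.333, the smallest that 2 against 2 allows. Relative to the summed T cell identity genes, the members came to 15.7% and 8.0% in fl/fl compared with 37.5% and 31.5% under the dLck-Cre label, a ratio of 2.91 (exact permutation p = 0.333). The T cell identity genes were themselves lower in those libraries.

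The members differed in how they varied between replicates of 1 group. In the fl/fl group, Lyz2 was 3.32-fold higher in replicate 1 than in replicate 2, Csf1r 2.03-fold, Adgre1 1.72-fold and C1qa 1.65-fold. Cd14, Apoe and Mrc1 differed by much less, at 0.931-fold, 1.07-fold and 1.13-fold. In the libraries labelled dLck-Cre, Lyz2 was 1.67-fold and Csf1r 1.48-fold higher in replicate 1, whereas Mrc1 (0.791-fold), Apoe (0.868-fold) and Cd14 (0.883-fold) were higher in replicate 2. In both groups, then, Lyz2 and Csf1r lay at one end and Cd14, Apoe and Mrc1 at the other. The replicate numbers are not stated to pair the libraries, so this is a description of the spread only.

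**Figure D3:**
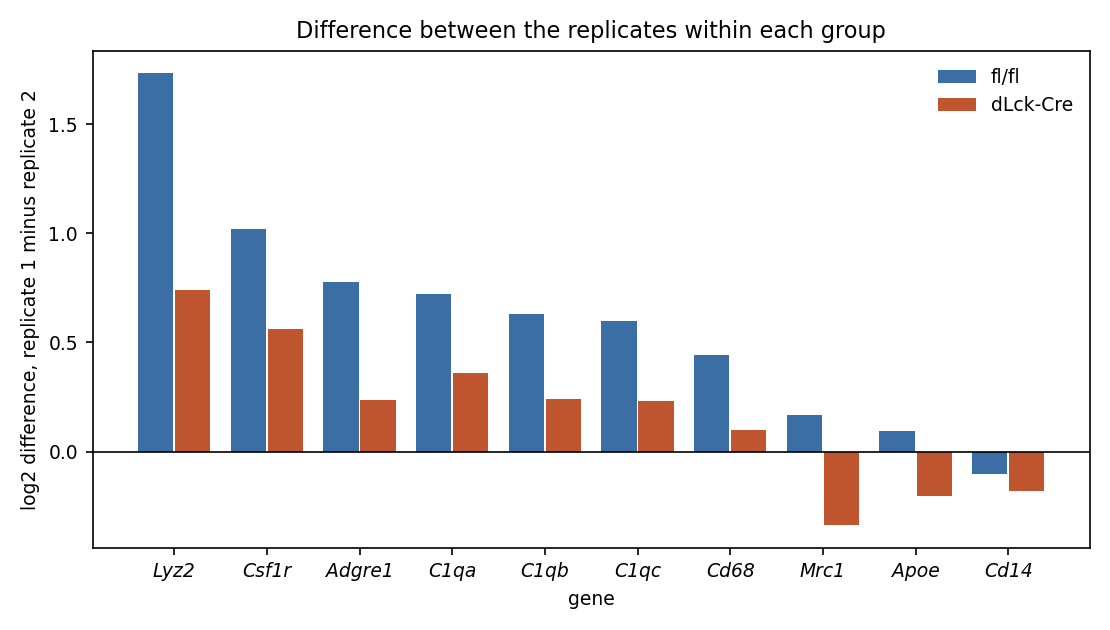
Log2 difference between replicate 1 and replicate 2 for each gene, within the fl/fl libraries and within the libraries labelled dLck-Cre. Lyz2 has the tallest bar in each group (1.73 and 0.74), and the bars of Mrc1, Apoe and Cd14 are short or below 0.

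Each gene was also set against the C1q genes of its own library, which removes any scaling of a library. This subtracts the same amount from every member of a library, so the contrast between members stays the same by construction. Cd14 stood 1.13 and 1.88 (log2) above the mean of the C1q genes in fl/fl compared with 1.45 and 1.90 under the dLck-Cre label. The lower value of each group came from replicate 1, and the groups overlapped. Lyz2 stood 4.06 and 2.98 above them against 3.78 and 3.32, with the reverse order of replicates. Of the 7 members outside C1q, 6 overlapped between groups on this scale. The exception was Adgre1, at -1.04 and -1.17 against -1.001 and -0.96, a difference of 0.12 (exact permutation p = 0.333, the smallest possible). The differences of the 7 ratios between groups ran from 0.02 to 0.18; with 2 libraries a group, a difference of that size cannot be resolved.

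Each member's centred log2 profile over the 4 libraries was also set beside 2 mean profiles, an addition made after the values were seen. The root mean square distance of Adgre1 was 0.0782 from the mean profile of the C1q genes and 0.407 from that of 16 colonic epithelial genes. Csf1r (0.167 and 0.554), Cd68 (0.115 and 0.296) and Lyz2 (0.416 and 0.783) were also nearer to C1q. Of these 2 profiles, the epithelial one was the nearer for Cd14 (0.322 from C1q and 0.146 from epithelium), Mrc1 (0.291 and 0.120) and Apoe (0.260 and 0.193). No profile of other myeloid genes was set beside them, so whether this is particular to epithelium was not tested. The median log2 difference of replicate 1 minus replicate 2 was -0.12 in fl/fl and -0.47 under the dLck-Cre label for the epithelial genes. It was 0.17 and -0.19 for 8 growth factor and receptor genes related to Csf1r. For 21 other macrophage identity genes it was 0.59 and 0.11. With 4 libraries these distances are a description, and the cell source of any gene was not tested.

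Among the 11207 other genes with a mean of at least 50 normalized counts, 30 lay within 0.1 of the C1q profile, and the median distance was 0.615. The nearest was Pirb, which encodes an inhibitory immunoglobulin-like receptor of myeloid cells, at 0.0115. Pirb had 376 and 240 normalized counts in fl/fl versus 692 and 558 and rose by 1.05 ± 0.24 (adjusted p = 0.0474). Lacc1 (0.0219), the signalling adaptor gene Tyrobp (0.0477) and the C-type lectin gene Clec4e (0.0573) followed. Sgk3 (0.0616), Acvrl1 (0.0619), the myeloid receptor gene Cd300a (0.0639) and Cracr2b (0.0656) were the next, where predicted genes and Rik names were passed over.

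Levels of different members were compared as normalized counts per kilobase of annotated exon. For C1qc the annotated exons come to 1931 bases and the protein-coding transcript to 1203, which lowers its value here. For C1qa (1040) and C1qb (1088) the lengths are equal. In the fl/fl libraries Lyz2 had 7373 ± 5604 per kilobase, Apoe 1715 ± 80.8, Cd14 1172 ± 58.8, C1qa 921 ± 320.01 and C1qb 688 ± 209 (SD, n = 2). C1qc (283 ± 81.9), Csf1r (181 ± 87.0), Cd68 (135 ± 29.1), Adgre1 (106 ± 39.6) and Mrc1 (21.6 ± 1.80) were lower. The order was the same in the means of the libraries labelled dLck-Cre, from 13538 ± 4795 for Lyz2 down to 51.1 ± 8.43 for Mrc1. Within single libraries it held in 3 of 4, since C1qa (1147 per kilobase) was just above Cd14 (1130 per kilobase) in fl/fl replicate 1. Between neighbours in this order, the fl/fl values overlapped for Cd14 and C1qa, C1qa and C1qb, C1qc and Csf1r, Csf1r and Cd68, and Cd68 and Adgre1. In the libraries labelled dLck-Cre they overlapped for C1qa and C1qb and for Csf1r and Cd68.

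Other genes of the same pathways mostly lay above 0 as well. Of 169 genes on 10 lists of related functions, the members left out, 142 were tested. By limma 35 of these rose and 0 fell, with a median log2 difference of 0.94 (36 rose by edgeR and 53 by DESeq2). Of all genes tested, 5.75% rose and 1.22% fell by limma, 5.83% rose by edgeR and 9.67% by DESeq2. These shares are also the background for the counts of each list below. Among the 142 genes, 131 lay above 0, beside 7869 of the 16490 genes tested. The lists were written with results of these data known. Limma called 63 of the 142 without fl/fl replicate 1, 27 without fl/fl replicate 2, 29 without dLck-Cre replicate 1, and 0 without dLck-Cre replicate 2 (5 by edgeR).

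**Figure D4:**
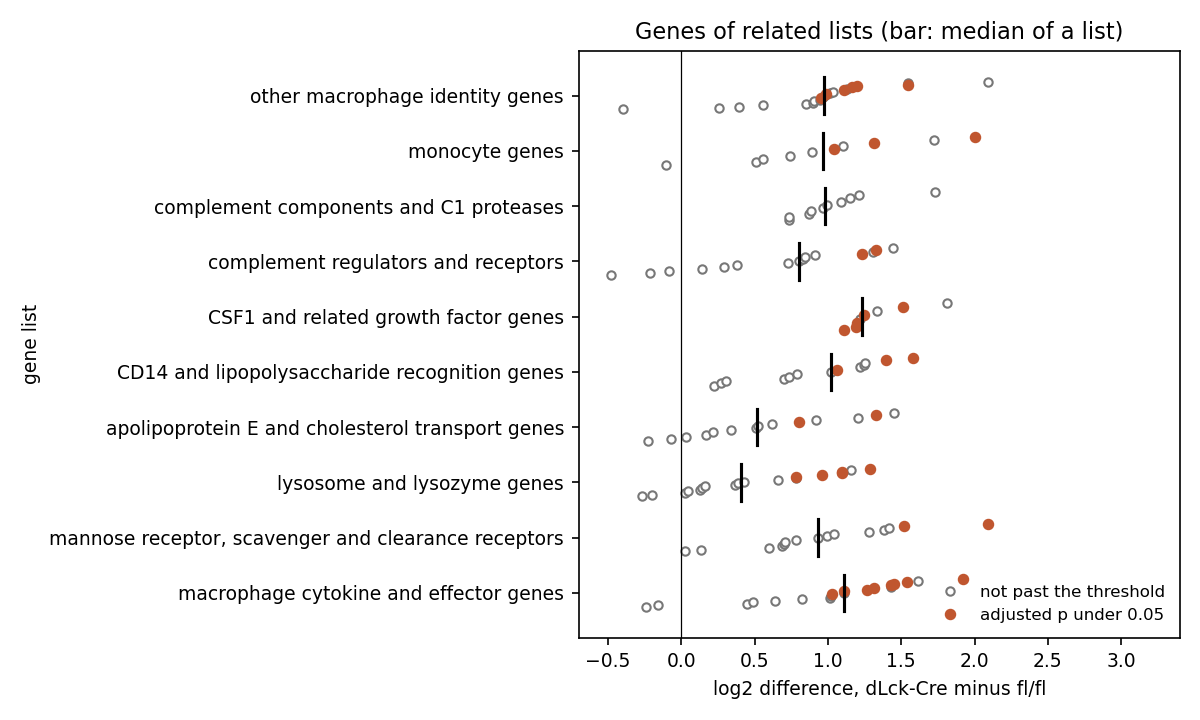
Log2 difference (libraries labelled dLck-Cre minus fl/fl libraries) of each tested gene on the 10 lists; filled points passed the threshold, open points did not, and vertical bars are list medians. The growth factor list has the highest median (1.23) and the lysosome list the lowest (0.41).

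Of 21 other macrophage identity genes tested, 6 rose and 0 fell, with a median of 0.98. Fcgr1, the high-affinity IgG receptor gene, had 140 and 90.6 normalized counts in fl/fl versus 325 and 336 and rose by 1.54 ± 0.25 (adjusted p = 0.0236). Itgam (0.95), which encodes CD11b, Tyrobp (1.11) and the costimulatory ligand gene Cd86 (0.99) rose as well. Cx3cr1, the fractalkine receptor gene of resident macrophages, was at 160 and 85.1 against 115 and 67.9 (-0.40, adjusted p = 0.585), the only gene of the list below 0; it was named after its value was seen. Of 10 monocyte genes 3 rose, the proteoglycan gene Vcan (2.00), the clotting factor gene F13a1 (1.31) and Mgst1 (1.04), and Treml4 (1.72) did not pass (adjusted p = 0.0682).

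The partners of C1q did not pass. Of 10 complement components and C1 proteases tested, limma and edgeR called 0 and DESeq2 called 3, while 6 had an unadjusted p under 0.05, as did 23.9% of all genes; all 10 lay above 0, at a median of 0.98. The protease gene C1s1 had 293 and 45.3 normalized counts in fl/fl versus 215 and 248.8 (0.99 ± 0.72, adjusted p = 0.451), falling to -0.34 when fl/fl replicate 2 was left out. C1ra had 156 and 67.4 against 157 and 187 (adjusted p = 0.297). Serping1, which encodes the inhibitor of C1, had 84.2 and 29.8 against 124 and 154 (1.44, adjusted p = 0.112). In all 3 genes fl/fl replicate 2 was the lowest library. Without fl/fl replicate 1 all 3 passed limma's test (differences 2.33, 1.33 and 2.18), and without fl/fl replicate 2 the differences of C1ra and Serping1 were 0.13 and 0.71. C3 (0.87), C4a (1.21), the properdin gene Cfp (0.97) and the ficolin gene Fcna (1.73) did not pass either, with adjusted p between 0.0871 and 0.137.

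Of 15 complement regulators and receptors 2 rose, Lrp1 (1.33), an endocytic clearance receptor gene, and Itgax (1.23), the CD11c chain of a complement receptor. The anaphylatoxin receptor gene C3ar1 (1.31, adjusted p = 0.0832) did not pass.

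Of 8 growth factor and receptor genes related to Csf1r, 5 rose. Csf1, the main ligand of its product, had 700.5 and 775.5 normalized counts in fl/fl versus 1281 and 1974 and rose by 1.11 ± 0.21 (adjusted p = 0.0316). Il34, the other ligand gene, was low, at 6.24 and 8.84 against 18.8 and 43.4, and did not pass (adjusted p = 0.1). The GM-CSF receptor genes Csf2rb (1.51) and Csf2ra (1.25) and the G-CSF receptor gene Csf3r (1.19) also rose.

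Of 13 genes listed beside Cd14 for recognition of lipopolysaccharide and related ligands, limma called 3 higher, edgeR 2 (not Tlr2) and DESeq2 6. Tlr4 had 160 and 168 normalized counts in fl/fl versus 407 and 461 and rose by 1.40 ± 0.18 (adjusted p = 0.0195). Ly96, which encodes the TLR4 partner MD-2, had 18.7 and 22.1 against 51.2 and 76.9 (1.58, adjusted p = 0.0491), and Tlr2 rose by 1.06. All 3 genes of the receptor complex, Cd14, Tlr4 and Ly96, were thus higher. Tlr6 (1.22, adjusted p = 0.0558) did not pass.

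Among 14 genes of cholesterol transport tested beside Apoe, 2 rose, Lrp1 and the cholesterol exporter gene Abca1 (0.80). The cholesterol transporter gene Npc1 (0.51, adjusted p = 0.0924) did not pass. Apoc1, Apoc2 and Apoc4 were not analysed here. Of 18 lysosome and lysozyme genes 5 rose, among them the protease genes Lgmn (1.10) and Ctsl (0.96), Cd63 (1.10) and the progranulin gene Grn (0.78). Of 15 mannose receptor, scavenger and clearance receptor genes, the scavenger receptor gene Msr1 (1.52) and the lectin gene Clec10a (2.09) rose. Mrc2, the closest relative of Mrc1 on the list, was at 24.9 and 16.6 against 26.1 and 43.4 (0.70, adjusted p = 0.383), and Clec7a (1.42, adjusted p = 0.0506) and Stab1 (0.69, adjusted p = 0.0626) did not pass. Of 19 cytokine and effector genes of macrophages 8 rose, including Il1b (1.31), Ptgs2 (1.03), Il1rn (1.54) and the interferon-induced chemokine gene Cxcl9 (1.92). Cells other than macrophages also express some genes of this last list.

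Markers of other cells moved in the same libraries. The 16 colonic epithelial genes tested took 0.182% and 0.195% of the fl/fl libraries and 0.434% and 0.565% of the libraries labelled dLck-Cre, and 15 of them rose (median 1.32), Epcam (1.32), Muc2 (1.27), Cldn7 (1.35) and Krt19 (1.26) among them. The 13 dendritic cell and class II genes took 0.0940% to 0.142% against 0.276% to 0.311%, and 6 rose by limma (8 by DESeq2). These 6 were Irf8 (1.33) and the class II genes Cd74 (1.25), H2-Ab1 (1.26), Ciita (1.26), H2-Aa (1.26) and H2-Eb1 (1.20). Flt3 (0.96), Zbtb46 (1.01), Clec9a (1.64), Batf3 (1.07), Ccr9 (0.61) and Siglech (0.52) did not pass in limma. Xcr1 was below 0 (-0.25, limma adjusted p = 0.619). The 22 T cell identity genes took 0.839% to 0.847% against 0.585% to 0.651%, and 8 fell (median -0.53; 7 by edgeR and 13 by DESeq2), where 1.22% of all genes fell by limma, 1.04% by edgeR and 3.02% by DESeq2. They included Cd5 (-1.11), Cd28 (-0.93), Cd6 (-0.80) and Ubash3a (-0.68). None of these genes was at 0 in any library, and their part in the differences of the members was not tested.

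Taken as a list, neutrophil genes, which mark the other large myeloid population of an inflamed colon, did not follow the members. The 12 genes took 0.0199% and 0.0446% of the fl/fl libraries and 0.0334% and 0.0355% of the libraries labelled dLck-Cre, so that the fl/fl library with fewer macrophage reads had more neutrophil reads. Limma, edgeR and DESeq2 called 0 of them, 0 had an unadjusted p under 0.05 (23.9% of all genes), and the median difference was 0.13. Ly6g (1.11), Mmp9 (0.57), Mmp8 (0.47) and Camp (-0.37) had adjusted p between 0.25 and 0.594. The G-CSF receptor gene Csf3r, counted above with the growth factor receptors and not on this list, rose (1.19). Of 5 mast cell and eosinophil genes tested, Siglecf (0.80), Ccr3 (-0.42), Cpa3 (0.38) and Mcpt1 (0.32) among them, limma, edgeR and DESeq2 called 0, and 0 had an unadjusted p under 0.05.

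Of 13 stromal and endothelial genes limma and edgeR called 0, while 6 had an unadjusted p under 0.05 (23.9% of all genes) and DESeq2 called 1 higher and 1 lower. They took 0.0217% and 0.00987% against 0.0184% and 0.0237%, with Myh11 at 1.72, Lum at 1.70, Acta2 at 1.22 and Pecam1 at -0.60. Of 5 B and plasma cell genes tested 3 rose, Igkc (2.46), Sdc1 (1.10) and Blnk (1.07), and Ighm (1.34) did not pass. Their summed share was 0.00531% and 0.00576% against 0.0123% and 0.0144%; the B cell genes Ms4a1, Cd79b and Pax5 were not analysed here. Of 8 CD8 T and NK cell genes 1 rose, Klre1 (1.72), and Ncr1 (1.92), Klrc1 (0.81) and Prf1 (0.61) did not pass; their share was 0.0195% and 0.0249% against 0.0373% and 0.0426%. The part of these cells in the differences of the members was not tested.

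**Figure D5:**
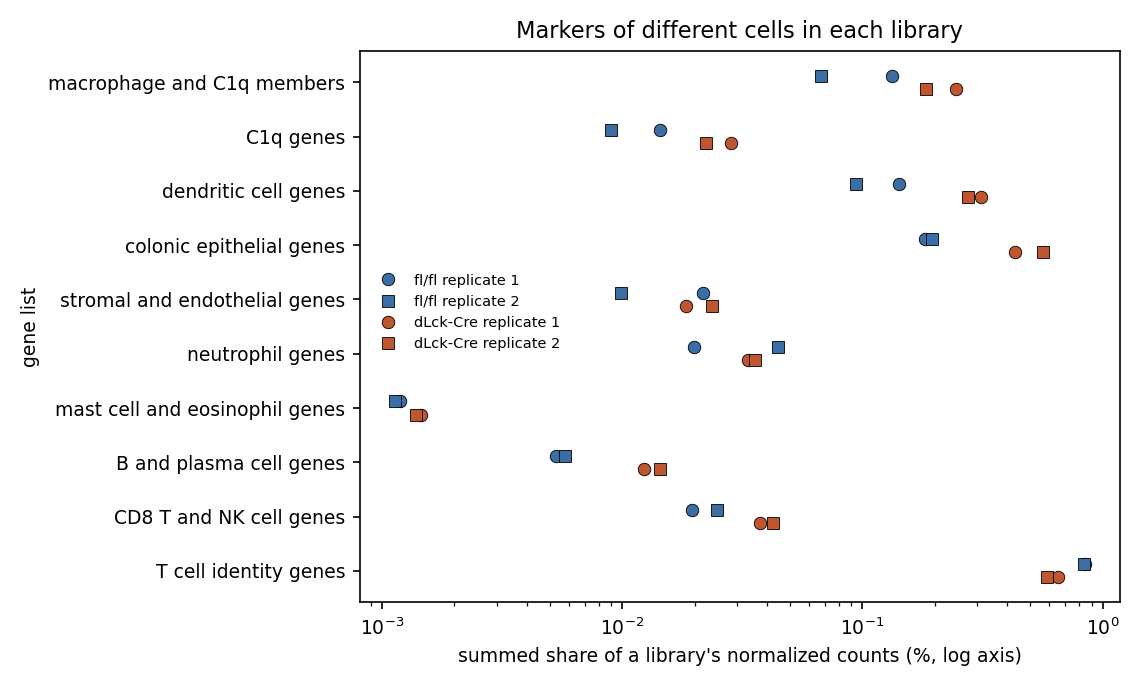
Summed share of a library's normalized counts (percent, log axis) taken by the 10 members and by marker lists of other cells; circles are replicate 1 and squares replicate 2. The members, epithelial genes and the dendritic cell list, which includes class II genes, are higher in both libraries labelled dLck-Cre. T cell identity genes are lower, and neutrophil genes overlap.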

How the data were processed

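RNA sequencing of 4 libraries was analysed from 1 deposited table, 2 libraries for each donor genotype, with columns assigned by the names in the labels. The build is mm10, per the submitters' processing notes, while aligner, counting tool, strand setting and annotation are not given in the sources used here. Each deposited column holds normalized counts (a signal: whole reads of a gene over 1 library-wide factor), judged from the table's name and from the numbers themselves: 100% of values were whole multiples of 1 step per library (tolerance 1e-06). Every listed gene had at least 41 reads in total.

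The test used log2(normalized count + 1) of genes with a mean of at least 10, with limma 3.58.1 (intensity trend) in R 4.3.3 and Benjamini-Hochberg adjustment over 16490 genes. Log2 differences are on that scale and understate low genes; folds are ratios of normalized counts or of their group means. EdgeR 4.0.16 and DESeq2 1.42.0 were run on the recovered reads, where adjusted p-values that DESeq2 left missing stayed missing. Limma, edgeR and DESeq2 were also run on simulated counts, where every gene had the same spread beyond counting error, unlike these libraries. That run does not measure their error rates in these data. Exact permutation tests and exact intervals used scipy 1.17.1. Coordinates, exon lengths and transcripts came from GENCODE vM21 and upstream sequences from RefSeq; all 10 symbols matched 1 gene.

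The members, the lists and the rules were chosen with earlier results of these data known. Named genes were the members, up to 4 genes of each list by p-value, fixed partner genes, the 8 genes nearest to the C1q profile, and genes named by position or to check the labels; Cx3cr1 was named after its value was seen, and some genes the rule names are not reported here. Alternatives covered pseudocounts, filters, scaling, limma settings, count tests, the replicate block and leaving out libraries. EdgeR without each library was added after the data were seen.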

Additional observations from a re-analysis of the deposited data

How the results depend on the processing

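The differences of the 10 members kept their direction in all 200 comparisons with an alternative, of which 148 kept their side of the threshold, 39 lost a call and 13 gained one. The members' count of 7 calls became 2 after quantile normalization and 0 in limma without the trend (8 had an unadjusted p under 0.05 there, edgeR called 7), and ran from 0 to 10 when single libraries were left out in limma and in edgeR to 10, 4, 3 and 1. With the replicate number as a block it was 10; the numbers are not stated to pair the libraries, and deviations of same-numbered libraries correlated across genes at 0.11. Scaling to the T cell identity genes moved the median of all genes by 0.54 and the members' median to 1.65, and called 9 members, with 32.6% of all genes higher. The pathway count of 35 became 14 (quantile), 108 (T cell scaling), 0 (no trend), 53 (DESeq2) and 60 (replicate block), and 0 to 63 without single libraries in limma, 5 to 64 in edgeR. The count of all genes, 1150, became 341, 5447, 0 (3443 at an unadjusted p under 0.05), 1768 and 2096 in the same order, and 0 to 1231 without single libraries in limma, 71 to 1316 in edgeR. Leaving out single libraries moved the log2 ratio of the members' share of reads, 1.10, to between 0.69 and 1.68, and their median to between 0.80 and 1.42. The count of 1 member whose ratio to C1q did not overlap between groups became 0 with Csf1r as the denominator and 2 to 6 without single libraries, where 1 group has 1 library.

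Directions turned for genes that had not passed in the main limma test. With T cell scaling, which Cd4 helps set, these were Camp (0.17), Ccr3 (0.10), Cd4 (0.042) and Kdm1a (0.44, passing, limma adjusted p = 0.0428). Without single libraries, in limma and edgeR, they were Mmp8 (-0.16 to 1.10 in limma, -0.03 without dLck-Cre replicate 2; -0.038 and -0.13 in edgeR), Ccr3 (-1.06 to 0.22, and 0.28 in edgeR), C1s1 (-0.34 to 2.33, and -0.33 in edgeR), Lyz1 (-0.37 to 1.22, -0.068 without dLck-Cre replicate 1, and -0.29 and -0.28 in edgeR) and Hmgxb3 (-0.16 to 0.22, and -0.13 in edgeR). The cause was not tested. With 2 libraries a group, precision is limited by the spread between libraries rather than by reads.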
